A study of Rattus norvegicus with 12 samples.

Results

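Vein grafts taken 14 days after surgery were set against grafts taken at 7 and at 28 days, to find transcripts that peaked or dipped in the middle of the time course. The grafts came from male rats in which an external jugular vein had been joined into the carotid artery. Whole-vein RNA was hybridised to Agilent arrays in 1 colour. There were 3 arrays at day 14, 3 at day 7 and 3 at day 28, and these 9 of the 12 arrays of the series were chosen by their labelled day alone. The other 3 arrays held vein of unoperated rats, called day 0, which is quoted beside the grafts. Day 0 entered no test, apart from an alternative fit on all 12 arrays. The labels name no strain, give no age and do not say that each array held a separate animal, so the p-values reflect how far these arrays spread, and that spread may be technical only.

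A vein moved into an artery meets arterial pressure and flow. Its inner lining is damaged, leukocytes enter the wall, and smooth muscle cells and fibroblasts divide and lay down matrix until the wall has thickened. Genes of cell division, antigen presentation and matrix therefore serve as readouts of the stage a graft has reached, and genes of other organs serve as a check on which tissue the RNA represents.

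All levels below are log2 intensities of a probe minus the 75th percentile of its array, so 0 is the brightness of that percentile and only values of 1 probe are compared with each other. The contrast is the day 14 mean minus the equally weighted mean of day 7 and day 28, in log2 units ± SE from limma. A peak was a probe with a positive contrast at an adjusted p under 0.05 and a day 14 mean above both other days, and a dip was the reverse. Of 20786 tested probes, 1605 were peaks (7.72%) and 1165 were dips (5.6%). Higher values made up 57.55% of the 2801 calls, but 48.0% when arrays were scaled to their median (1215 peaks and 1294 dips) and 45.0% when all 12 arrays entered the fit (398 peaks and 482 dips). Another 31 called probes had a day 14 mean between the other days and count as neither. For 560 peaks (2.69%) and 319 dips (1.53%) the difference from each of the other days also passed its own test. All 3 day 14 arrays lay above the 6 other graft arrays for 2263 probes (10.9%), of which 1341 were peaks, and below them for 1476 probes (7.1%), of which 896 were dips. The contrast reached 2-fold for 519 peaks and 556 dips. Counted by gene, with the brightest probe standing for each of 12213 genes, there were 878 peaks (7.19%) and 673 dips (5.51%).

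**Figure D1:**
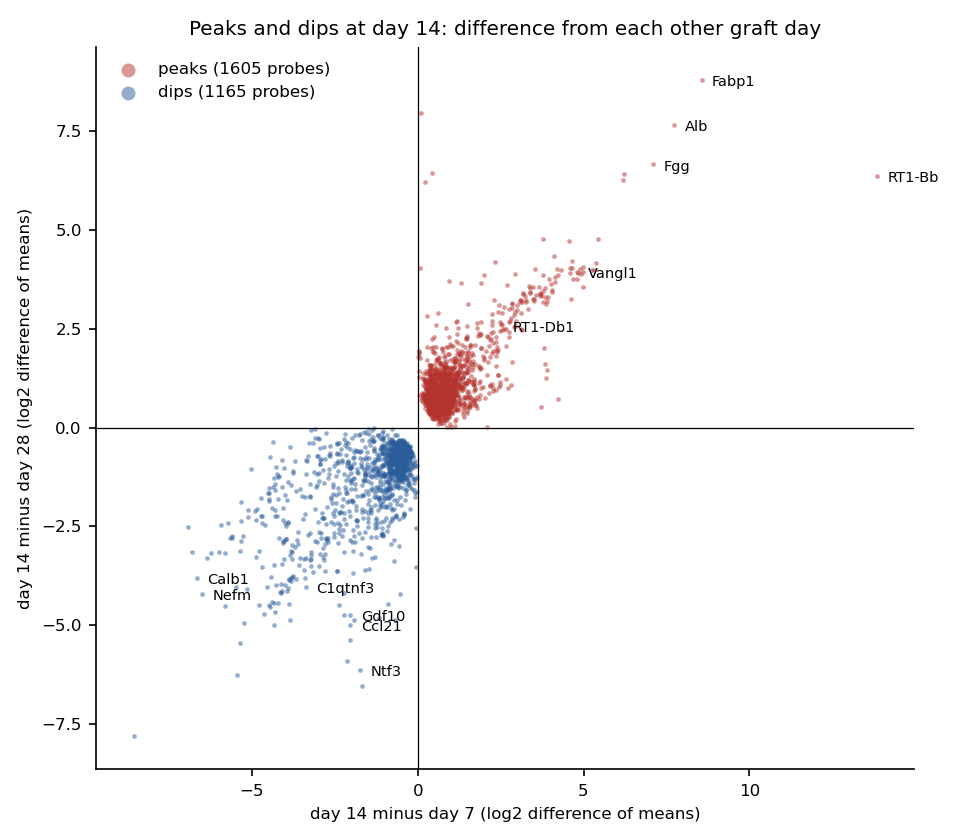
Each point is 1 of the 1605 peaks (red) or 1165 dips (blue), placed by its log2 difference between day 14 and day 7 (horizontal axis) and between day 14 and day 28 (vertical axis). Fabp1 and Alb stand far from 0 on both axes, RT1-Bb stands out mainly against day 7, and Ntf3, Ccl21 and Gdf10 mainly against day 28.

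Array 3 of day 7 stood apart from its group. It correlated with the other day 7 arrays at r = 0.9537 and 0.9372, while those correlated with each other at 0.9936 and day 14 pairs at 0.9788 to 0.9935, and it carried 393 spots marked as uneven against at most 11 on any other graft array. Without it, 3450 peaks and 3282 dips were called. Scan times in the file headers also run across the groups: day 14 array 1 shared a scan with the day 7 arrays, and day 14 arrays 2 and 3 shared a scan with day 28 arrays 1 and 2. With the scan as a fixed block, 412 peaks and 280 dips were called, and 403 and 269 of these were among the peaks and dips above. Within each of those 2 scans taken alone, 1601 of the 1605 peaks and 1162 of the 1165 dips kept their direction. These probes had been picked from the same arrays for lying beyond both days, which largely fixed that outcome. Without day 14 array 1, 279 peaks and 187 dips were called, and with normexp background correction 18 of each. That correction left few calls in any list below, and single genes are described with the block value where the block ended their call.

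**Figure D2:**
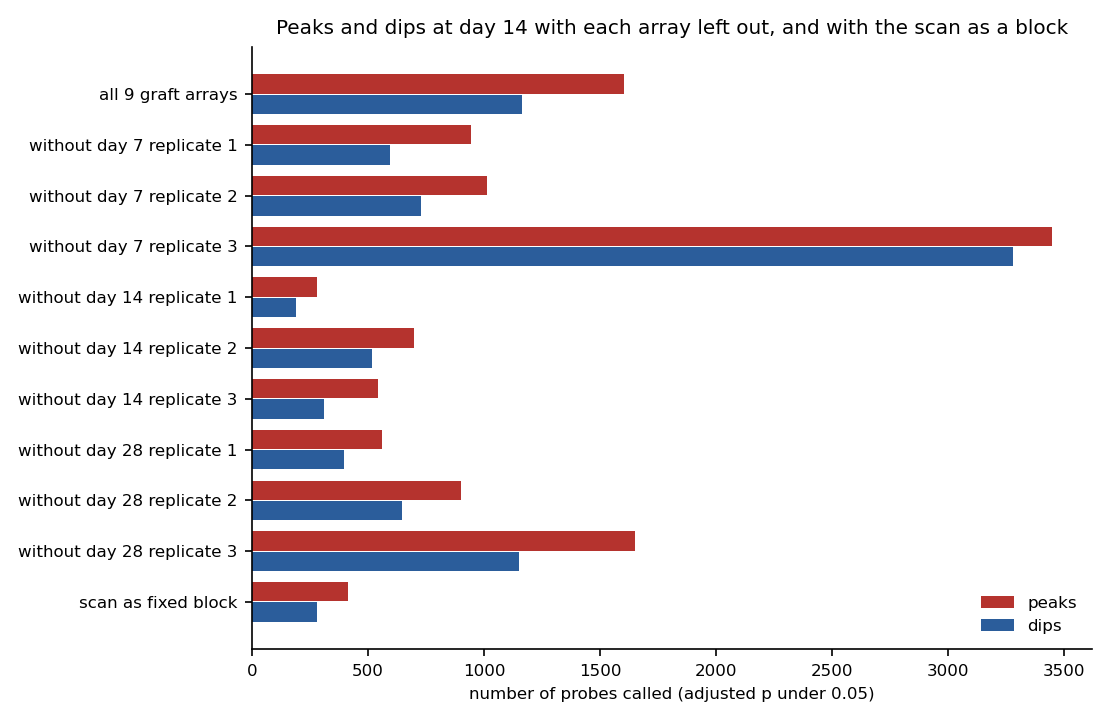
Bars give the number of probes called as peaks (red) or dips (blue) with all 9 graft arrays, with each array left out in turn, and with the scan as a fixed block. The counts were lowest without day 14 replicate 1, at 279 peaks and 187 dips, and highest without day 7 replicate 3, at 3450 peaks and 3282 dips.

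The steepest peaks included genes of liver. Of 26 genes of liver-made plasma proteins listed, 23 were on the array, 22 were tested, 10 were peaks and 0 were dips, against 7.19% peaks over all genes, and the median contrast of the list was 1.58 against 0.033 for all genes. The peaks were Alb, the 3 fibrinogen chain genes Fga, Fgb and Fgg, F2, Ambp, Ahsg, Apoa2, Serpinc1 and A2m. Of the 22, 3 passed the filter on dim probes through day 14 alone, so the count cannot be read as a share of liver genes. The liver list was made knowing that Alb, Fgg and A2m were high at day 14 in earlier results, and their direction is no independent evidence.

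The promoters of Alb and Fgb are shown because these genes peaked together and share a short motif of liver promoters. Each is the 250 bases before the gene start in the RefSeq table of the GRCr8 assembly, Alb at chr14:17906980-17907229, minus strand, and Fgb at chr2:170700876-170701125, minus strand. Capitals mark GTTAAT, 1 arm of the palindromic site of the liver transcription factor HNF1, or its reverse complement ATTAAC.
Alb: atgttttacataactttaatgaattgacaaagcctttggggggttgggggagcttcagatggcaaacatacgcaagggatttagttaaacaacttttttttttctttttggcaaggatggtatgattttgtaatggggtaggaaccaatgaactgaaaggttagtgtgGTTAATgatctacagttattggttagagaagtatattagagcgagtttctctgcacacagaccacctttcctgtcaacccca
Fgb: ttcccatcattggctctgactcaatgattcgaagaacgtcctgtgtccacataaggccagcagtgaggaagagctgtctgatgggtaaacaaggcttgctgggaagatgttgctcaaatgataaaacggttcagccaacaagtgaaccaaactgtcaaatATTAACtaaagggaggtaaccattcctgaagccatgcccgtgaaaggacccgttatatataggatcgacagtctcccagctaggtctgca
The motif was searched on both strands and was present in 4 of the 8 liver-list peaks with a promoter in the table (Alb, F2, Fga and Fgb). It occurred in 6.45% of all 33469 promoters of that length.

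Fabp1, the fatty acid binding protein of hepatocytes and gut epithelium, stood at 0.47, -1.42 and 0.98 on the day 14 arrays, at -8.59, -8.99 and -8.07 at day 7 and at -8.97, -8.74 and -8.61 at day 28. The day 14 arrays lay far above all others, and no day 7 or day 28 array was well above background. When every array of a group lacked a reading well above background, the fold has a lower bound alone. For that bound each dim array is given its lowest reading well above background, or the reading of the probe itself where that is larger, and the bright mean is set against the mean of these. Fabp1 at day 14 was at least 119.5-fold higher by this bound (adjusted p = 0.000435). An adjusted p beside a bound is that of the limma contrast or difference on the readings as they stand, those at background included. The bound itself was not tested. Fabp1, like every peak dim on all day 7 and day 28 arrays, passed the filter on dim probes through day 14 alone. In unoperated vein it stood at -5.57, -5.09 and -4.83, between the 2 levels.

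Alb, the gene for albumin, was well above background on every array. Its level was 3.49, 1.38 and 3.95 at day 14, against -4.59, -5.00 and -4.78 at day 7 and -4.61, -5.01 and -4.52 at day 28. The groups did not overlap, and day 14 array 2 was the lowest of its group. The contrast was 7.69 ± 0.50 (adjusted p = 0.000552), and it was called under all 21 alternative settings. Unoperated vein, at -2.41, -1.95 and -2.15, also lay above the day 7 and day 28 grafts.

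Fgg, which encodes the gamma chain of fibrinogen, stood at -0.62, -2.87 and -0.02 at day 14 and was not well above background on any day 7, day 28 or day 0 array. Its day 14 level was at least 52.8-fold higher (adjusted p = 0.00134). Mug1 and Mug1l1, near-identical plasma protease inhibitors whose probes may share signal, were at least 25.1-fold and at least 24.6-fold higher (adjusted p = 0.000835 and 0.000686). F2, prothrombin, stood at -2.05, -3.94 and -1.70 at day 14, at -8.52, -5.67 and -8.04 at day 7 and at -5.17, -8.76 and -5.45 at day 28. It was well above background on 1 day 7 and 2 day 28 arrays. The groups did not overlap, but the contrast of 4.37 ± 0.98 (adjusted p = 0.0274) lost its call with the scan as a block (adjusted p = 0.0808).

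In each of these genes day 14 array 2 was the lowest of the 3. The median level of the liver list was -2.19, -2.70 and -2.01 at day 14, -4.33, -4.43 and -5.39 at day 7 and -5.05, -5.08 and -4.41 at day 28, so every day 14 array lay above every other graft array. With the scan as a block 6 members remained peaks (1.78% of all genes were peaks in that fit), without day 14 array 1 there were 5, and without day 7 array 3 there were 15. Members outside the peaks included Hpx at 2.56 ± 0.94 (adjusted p = 0.106), Ttr at 1.07 ± 0.40 (adjusted p = 0.109) and Apob at -0.47 ± 0.27 (adjusted p = 0.275).

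A second liver list, of enzymes and transporters, was written after the values had been seen and is given as description. Of its 33 tested genes 17 were peaks and 1 was a dip, against 7.19% peaks and 5.51% dips over all genes. Of the 33, 5 passed the filter on dim probes through day 14 alone, so this count is no share of liver genes either. Among the peaks were Gnmt, which consumes S-adenosylmethionine, at 4.26 ± 0.78 (adjusted p = 0.0144, and 0.0584 with the scan as a block), Hpd of tyrosine breakdown at 3.41 ± 0.47 (adjusted p = 0.00579) and Cps1 of the urea cycle at 2.08 ± 0.54 (adjusted p = 0.0423, and 0.113 with the block). Bulk liver enzymes were not uniformly higher: Cyp2e1 had a contrast of -0.06 ± 0.45, Ass1 of -0.04 ± 0.46 and Cyp2c11 of 0.02 ± 0.75 (adjusted p = 0.944, 0.959 and 0.991). Cyp4a3, a fatty acid hydroxylase of liver and kidney, was at least 9.04-fold higher at day 14, with levels of -3.51, -3.65 and -3.98, but unoperated vein stood higher still, at -1.70, 0.05 and -0.08. In RNA of whole vein, fewer cells of a type and less RNA per cell cannot be told apart, and the part of other tissue in these levels was not tested.

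**Figure D3:**
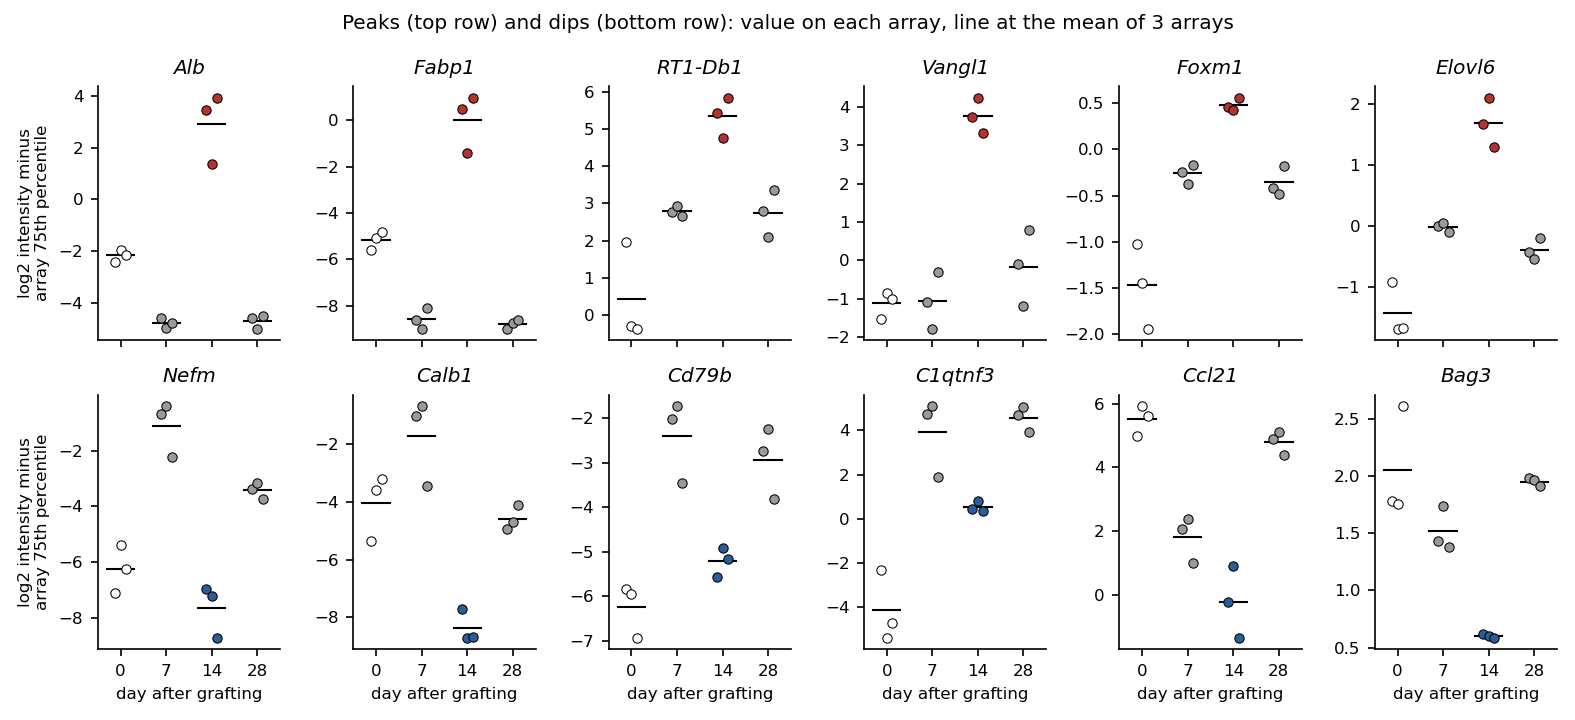
Each panel plots 1 gene, with a point for every array at days 0, 7, 14 and 28 and a line at the mean of 3 arrays, on the log2 scale relative to the array's 75th percentile. In the top row the day 14 points lie above all day 7 and day 28 points, and in the bottom row below them. Day 0 points (white) are shown for orientation and did not enter the main fit.

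Genes of class II antigen presentation peaked together. Class II molecules carry peptides on the surface of dendritic cells, macrophages and B cells and show them to CD4 T cells. All 10 listed genes were tested, 7 were peaks and 0 were dips (7.19% peaks over all genes), and all 10 contrasts were positive, with a median of 0.85. The peaks were the chain genes RT1-Ba, RT1-Bb, RT1-Da and RT1-Db1, the peptide loading genes RT1-DMa and RT1-DMb, and Ciita, the factor that switches the class II genes on. Probes of RT1 genes can share signal with near-identical copies, so the split between them is uncertain.

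RT1-Db1 gave the clearest values, with 5.42, 4.76 and 5.84 at day 14, against 2.78, 2.93 and 2.65 at day 7 and 2.80, 2.10 and 3.37 at day 28. Every day 14 array was above every other graft array, and days 7 and 28 overlapped. The contrast was 2.57 ± 0.31 (adjusted p = 0.00358), called in all 21 alternatives. RT1-Ba stood at 6.87, 6.32 and 7.14 at day 14, 5.64, 5.95 and 5.22 at day 7 and 5.44, 5.20 and 5.49 at day 28. These arrays did not overlap either, and the contrast of 1.29 ± 0.22 (adjusted p = 0.0115) missed the threshold with the scan as a block (adjusted p = 0.0595).

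RT1-Bb behaved unlike the other class II genes. It stood at 5.69, 5.23 and 5.97 at day 14, was not well above background on any day 7 array, and stood at 2.62, -8.72 and 3.94 at day 28, where array 2 alone was at background. The day 14 arrays were above all others, and day 28 was split. Day 14 was at least 5062-fold above day 7 by the bound, while its difference from day 28 did not pass the test (6.35, adjusted p = 0.152). The contrast, which rests on readings at background, was 10.10 ± 2.46 (adjusted p = 0.0352), and the call was lost with the scan as a block (adjusted p = 0.0694) and without any of day 7 arrays 1 and 2, the 3 day 14 arrays and day 28 array 1.

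The promoter of RT1-Da is shown because it is the 1 of 5 class II peaks with a promoter in the table that holds both class II boxes searched. It lies at chr20:4515165-4515414, plus strand of GRCr8 (RefSeq). Capitals mark GCAACAG, from the core of the X box, and ATTGG, the Y box, which do not overlap.
RT1-Da: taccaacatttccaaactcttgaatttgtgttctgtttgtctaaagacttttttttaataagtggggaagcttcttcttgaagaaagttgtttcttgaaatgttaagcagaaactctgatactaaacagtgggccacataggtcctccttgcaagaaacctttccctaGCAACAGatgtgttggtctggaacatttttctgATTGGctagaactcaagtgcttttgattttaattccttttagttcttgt
On both strands, ATTGG was in the promoters of all 5 (RT1-Ba, RT1-Bb, RT1-DMa, RT1-Da and RT1-Db1) and in 34.0% of all promoters. GCAACAG was in RT1-Da alone of the 5 and in 4.13% of all promoters.

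The class II median was 4.96, 4.42 and 5.38 on the day 14 arrays, 3.35, 3.46 and 2.81 at day 7 and 3.16, 2.74 and 3.83 at day 28, with no overlap. Without day 14 array 1 or array 3 only 1 member was a peak, and with the scan as a block 1 was (RT1-Db1). All 10 had the same direction within both scans, which for the peaks follows largely from how they were picked. Markers of the cells that carry class II moved with it in part. Of 14 tested macrophage genes 3 were peaks (7.19% over all genes), 13 had positive contrasts, the median was 0.57, and the array medians were 4.08, 4.14 and 4.18 at day 14, 3.71, 3.37 and 4.04 at day 7 and 3.10, 2.89 and 3.26 at day 28. Their part in the class II values was not tested.

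Among the macrophage genes, Mrc1, the mannose receptor, stood at 3.81, 3.80 and 3.95 at day 14, 2.28, 2.18 and 3.00 at day 7 and 2.30, 1.80 and 2.76 at day 28. All day 14 arrays were above the rest, with a contrast of 1.46 ± 0.25 (adjusted p = 0.011). Trem2, a lipid-sensing receptor of tissue macrophages, stood at 5.48, 5.24 and 5.64 at day 14, 4.25, 4.15 and 4.50 at day 7 and 4.65, 4.58 and 4.65 at day 28. It separated the groups as well, by 0.99 ± 0.13 (adjusted p = 0.0046), and remained called on leaving out any array. Cybb, a subunit of the phagocyte oxidase, was the other peak (0.58 ± 0.13, adjusted p = 0.0299, and 0.108 with the scan as a block). Cd68 (0.47 ± 0.41) and Lyz2 (0.18 ± 0.17) did not pass the test (adjusted p = 0.464 and 0.497), and Cd163 went the other way without passing it (-1.82 ± 1.01, adjusted p = 0.249). Itgam was called (0.57 ± 0.14, adjusted p = 0.039, and 0.0936 with the block), but its day 14 mean lay between the other days. Without day 7 array 3, 10 of the 14 were peaks, and without day 14 array 1 or array 3, 1 was.

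Of 8 genes of osteoclast-like and lipid-laden macrophages, 2 were peaks, against 7.19% peaks over all genes. They were Atp6v0d2, a proton pump subunit of osteoclasts, at 1.35 ± 0.26 (adjusted p = 0.0166), and Cd36, a scavenger receptor for oxidised lipid, at 0.61 ± 0.13 (adjusted p = 0.0202). Neither was called with the scan as a block (adjusted p = 0.0779 and 0.0929). Spp1 at -0.13 ± 0.21 and Ctsk at 0.06 ± 0.19 did not pass the test (adjusted p = 0.698 and 0.868). Lilrb2, an inhibitory receptor of myeloid cells in human, stood at 1.25, 1.65 and 1.07 at day 14, -0.43, -1.79 and 0.63 at day 7 and -1.11, -1.07 and -1.03 at day 28. Its day 14 arrays lay above all others, by 2.13 ± 0.45 (adjusted p = 0.0222, and 0.093 with the scan as a block).

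Of 17 T and NK cell genes, Cd4, Cd2 and Nkg7 were peaks, against 7.19% peaks over all genes. Cd4, the coreceptor that binds class II molecules, stood at 0.84, 0.81 and 0.97 at day 14, -0.17, -0.63 and 0.52 at day 7 and -0.84, -0.89 and -0.75 at day 28. The 3 groups were in order with no overlap, and the contrast was 1.33 ± 0.23 (adjusted p = 0.0109). Nkg7, a granule protein of cytotoxic cells, was above day 28 by 1.42 (adjusted p = 0.00673) but above day 7 by 0.05 (adjusted p = 0.897), so its peak rests on day 28. Cd8a had 1.1 ± 0.31 (adjusted p = 0.0531) and Cd3e 0.66 ± 0.20 (adjusted p = 0.0605). No T and NK cell gene was a peak with the scan as a block, or without day 14 array 1 or array 3.

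Part of the genes of cell division peaked at day 14. Of 30 listed genes 20 were on the array and tested, 9 were peaks and 0 were dips, against 7.19% peaks over all genes. Of the 20, 19 contrasts were positive, and the median was 0.58. The peaks were Tpx2, Foxm1, Ccne1, Kif20a, Ccna2, Ccnb2, Rrm2, Plk1 and Prc1. The array medians were 0.47, 0.37 and 0.62 at day 14, -0.23, -0.16 and -0.16 at day 7 and -0.18, -0.13 and -0.07 at day 28, so the day 7 and day 28 arrays overlapped and day 14 stood above both.

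Foxm1, a transcription factor that drives the genes of mitosis, stood at 0.45, 0.43 and 0.56 at day 14, -0.25, -0.37 and -0.16 at day 7 and -0.42, -0.48 and -0.18 at day 28. The day 14 arrays were close together and above all others, and the contrast of 0.79 ± 0.11 (adjusted p = 0.00624) was also called with the scan as a block. Kif20a, a motor of cytokinesis, stood at 0.49, 0.31 and 0.75 at day 14, -0.25, -0.17 and -0.16 at day 7 and -0.24, -0.08 and -0.41 at day 28. It was higher by 0.73 ± 0.13 (adjusted p = 0.0133, and 0.0709 with the block). Tpx2, which organises spindle microtubules, had the widest contrast of the list, 1.15 ± 0.14 (adjusted p = 0.00377), but was well above background on 3 day 14, 2 day 7 and 1 day 28 arrays. Pcna, a clamp of replication, gave -0.02 ± 0.18 (adjusted p = 0.95) and Mcm2, of the replicative helicase, 0.35 ± 0.14 (adjusted p = 0.131). Without day 14 array 1 the list had 2 peaks, without day 14 array 3 it had 3, without day 7 array 3 it had 15, and with the scan as a block it had 2, against 1.78% of all genes.

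The promoter of Ccnb2, a mitotic cyclin and a peak at 0.65 ± 0.10 (adjusted p = 0.00851, and 0.0588 with the scan as a block), is printed for the cell cycle element it holds. It lies at chr8:79981659-79981908, minus strand of GRCr8 (RefSeq), and capitals mark TTTGAA, the CHR element of late cell cycle genes.
Ccnb2: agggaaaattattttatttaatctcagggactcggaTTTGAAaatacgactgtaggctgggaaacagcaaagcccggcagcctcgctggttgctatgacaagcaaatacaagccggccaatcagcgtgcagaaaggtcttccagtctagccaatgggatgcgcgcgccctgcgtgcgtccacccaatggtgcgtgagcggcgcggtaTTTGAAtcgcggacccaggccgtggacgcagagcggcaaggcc
TTTGAA or its reverse complement was in 2 of the 5 cell cycle peaks with a promoter in the table (Ccnb2 and Prc1) and in 16.2% of all promoters.

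**Figure D4:**
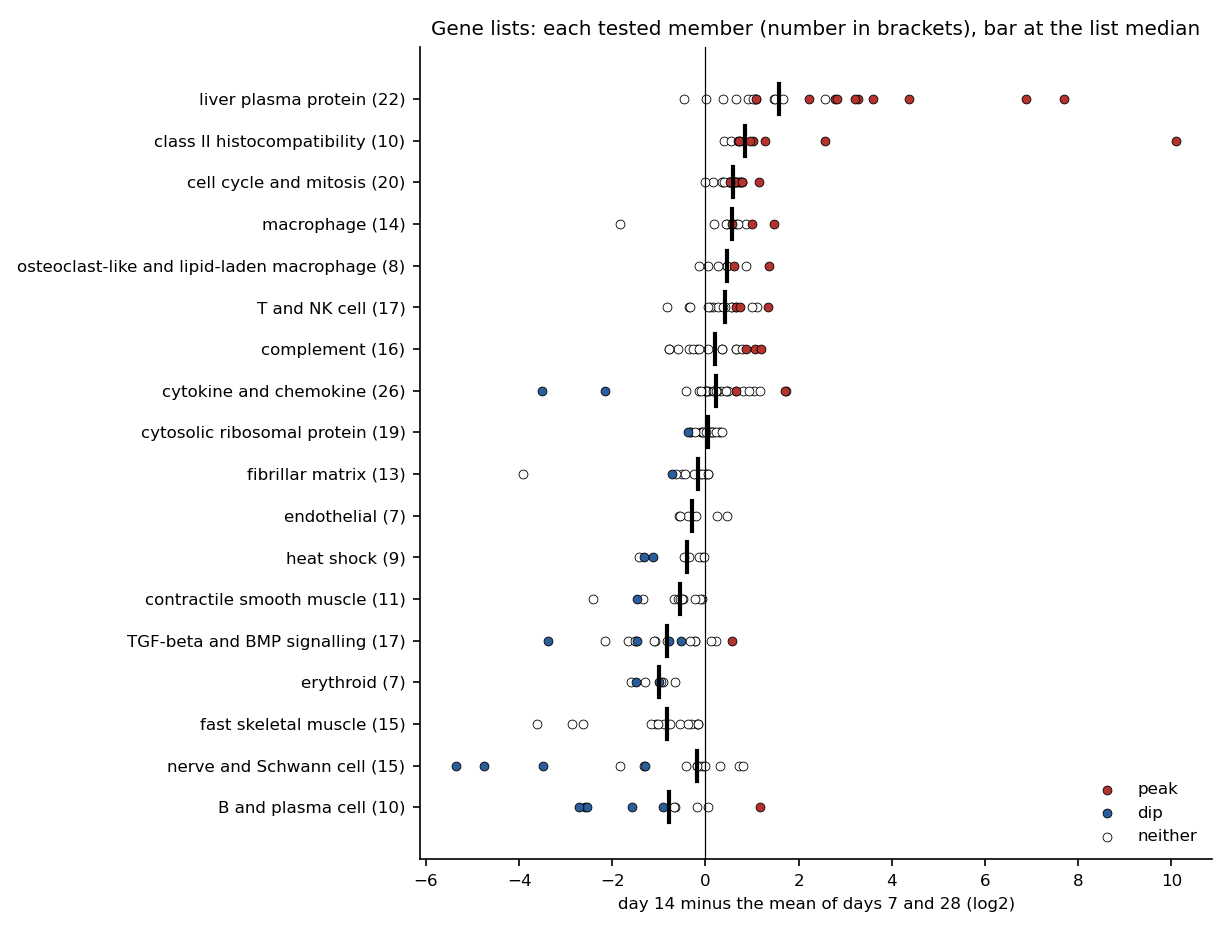
Each point is 1 tested gene of a list, placed by its log2 contrast of day 14 with the mean of days 7 and 28, red for a peak, blue for a dip and white for neither, with a bar at the list median. The liver list reaches 7.69, the class II list lies entirely above 0, and the nerve and B cell lists hold dips down to -5.35 and -2.71.

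Several steep peaks belonged to no list. Vangl1, a membrane protein of planar cell polarity, stood at 3.74, 4.24 and 3.31 at day 14, -1.09, -1.78 and -0.29 at day 7 and -0.11, -1.18 and 0.79 at day 28. The groups were far apart, by 4.37 ± 0.47 (adjusted p = 0.00266), and the call held in all 21 alternatives. Unoperated vein, at -1.52, -0.84 and -1.01, was in the range of day 7. Pamr1, a secreted protease-like protein, stood at -0.50, 0.33 and -0.56 at day 14, -5.04, -4.85 and -4.65 at day 7 and -4.11, -5.45 and -3.25 at day 28, again with no overlap (4.31 ± 0.44, adjusted p = 0.00215). Syce1, of the synaptonemal complex of meiosis, was well above background on 0 day 7 arrays and 1 day 28 array. Day 14 was at least 22.4-fold above day 7 (adjusted p = 0.000429) and above day 28 by 4.77 (adjusted p = 0.000916). Mgat4c, which branches N-linked glycans, was at least 8.72-fold higher (adjusted p = 0.0024).

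The olfactory receptor genes Or8h7, Or52e51 and Or52e8b were among the 14 steepest peaks. Or8h7 stood at 0.73, 1.32 and 0.50 at day 14, -4.72, -4.92 and -3.62 at day 7 and -2.97, -4.25 and -2.17 at day 28. It was higher by 4.62 ± 0.48 (adjusted p = 0.00221), and Or52e51 by 4.35 ± 0.62 (adjusted p = 0.00629). Of 468 tested receptors of this family 21 were peaks and 9 were dips, against 7.19% peaks and 5.51% dips over all genes. Of the 468 contrasts 356 were positive, with a median of 0.30 against 0.033 for all genes. The share of positive contrasts over all genes was not counted. Many of these probes were dim: 281 were well above background on all 9 graft arrays. On the day 14 arrays 12 were never well above it, and 2 never on those of days 7 and 28. Members of this family can be near-identical, and their identity by 1 probe is uncertain.

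Other peaks were modest and tight. Elovl6, which lengthens fatty acids, stood at 1.68, 2.11 and 1.30 at day 14, 0.00, 0.04 and -0.09 at day 7 and -0.43, -0.53 and -0.20 at day 28. It was higher by 1.90 ± 0.18 (adjusted p = 0.0015) in every alternative, while the other 14 tested genes of sterol and fatty acid synthesis were not peaks or dips. Bhlhe40, a repressor tied to the clock and to hypoxia, was higher by 1.25 ± 0.12 (adjusted p = 0.00161), the only peak among 14 clock genes. Plau, the urokinase that activates plasminogen, was higher by 1.14 ± 0.16 (adjusted p = 0.00579), the only peak among 17 matrix proteases and inhibitors. Over all genes 7.19% were peaks, so 1 peak in each of these lists is near the overall share. Calr, a chaperone of the endoplasmic reticulum, was higher by 1.01 ± 0.12 (adjusted p = 0.00306), and Tnnt2, a troponin of heart and embryonic muscle, by 1.48 ± 0.23 (adjusted p = 0.00881). Osm, a cytokine of activated myeloid cells, was higher by 1.71 ± 0.36 (adjusted p = 0.0221) and Ccl3, a chemokine for monocytes and T cells, by 0.65 ± 0.14 (adjusted p = 0.0248), and both lost the call with the scan as a block (adjusted p = 0.0804 and 0.0902). They were the 2 peaks among 26 cytokine and chemokine genes, of which 2 were dips, against 7.19% peaks and 5.51% dips over all genes. Against 7.19% peaks over all genes, C6, Cfd and Cfp of the complement system were peaks among 16 genes. They were higher by 1.06 ± 0.25, 1.19 ± 0.22 and 0.86 ± 0.19 (adjusted p = 0.0326, 0.0154 and 0.0259), and none of them kept the call with the block.

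The steepest dips included genes of neurons. Neurofilaments are the cables inside axons, granins fill the secretory granules of neurons and endocrine cells, and a vein wall holds nerve fibres but few neuron cell bodies. Of 15 tested genes of nerve and Schwann cells 4 were dips (Nefm, Nefl, Nefh and Mbp) and 0 were peaks, against 5.51% dips over all genes. Of the 15, 2 passed the filter on dim probes through days 7 and 28 alone. The median contrast of the list was -0.19. The list's other myelin and Schwann cell genes were not called as dips, and Prx, a protein of myelinating Schwann cells, had a contrast of -0.12 ± 0.27 (adjusted p = 0.801).

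Nefm, the medium neurofilament chain, stood at -6.96, -7.21 and -8.69 at day 14, where no array was well above background. It stood at -0.69, -0.41 and -2.23 at day 7 and at -3.39, -3.14 and -3.74 at day 28. Day 7 was highest, day 28 between, and day 14 lowest, with no overlap between any of them. Day 14 was at least 23.2-fold lower (adjusted p = 0.00137). Nefl, the light chain, was at least 20.8-fold lower (adjusted p = 0.00397), and Nefh, the heavy chain, fell by 1.31 ± 0.17 (adjusted p = 0.0046). In unoperated vein Nefm stood at -7.09, -5.39 and -6.22 and was well above background on 1 array, and Nefl on none.

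Calb1, a calcium-binding protein of neurons, stood at -7.71, -8.70 and -8.70 at day 14, -1.0, -0.67 and -3.45 at day 7 and -4.92, -4.70 and -4.09 at day 28. All day 14 arrays were at background and below the rest, a dip of at least 13.6-fold (adjusted p = 0.00306). Chgb, a granin, stood at -6.58, -8.66 and -6.24 at day 14, -0.12, 0.28 and -2.93 at day 7 and -3.98, -3.68 and -4.27 at day 28. It was well above background on 1 day 14 array, below all others, with a contrast of -4.71 ± 0.78 (adjusted p = 0.0101, and 0.0595 with the scan as a block). Mbp, myelin basic protein, had 6 tested probes, of which the brightest alone is given. It stood at -2.71, -2.46 and -2.95 at day 14, 2.19, 2.53 and -0.67 at day 7 and 0.49, 1.07 and -0.93 at day 28. The third arrays of days 7 and 28 were the lowest of their groups and still above day 14, and the contrast was -3.49 ± 0.73 (adjusted p = 0.0213, and 0.0639 with the block). The call was also lost without any of the 3 day 14 arrays or day 28 array 1. Unoperated vein, at 1.00, 1.27 and 0.02, lay above day 14 as well.

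Other dips among the 14 steepest were Bcan, a proteoglycan of brain matrix, at least 22.25-fold lower (adjusted p = 0.00306), and Atp2b2, a calcium pump of neurons and hair cells, at least 22.5-fold lower (adjusted p = 0.00387). Plppr4, Lamp5 and Myt1l, a membrane protein, a vesicle protein and a transcription factor of neurons, were at least 10.8-fold, 6.29-fold and 5.29-fold lower (adjusted p = 0.00579, 0.00107 and 0.00354). Scg2, another granin, fell by 3.56 ± 0.79 (adjusted p = 0.0264), Nptx1, a pentraxin of synapses, by 2.98 ± 0.65 (adjusted p = 0.0248), and Pcp4l1 had a contrast of -3.34 ± 0.57 (adjusted p = 0.0115). Scg2 and Pcp4l1 were well above background on 2 day 14 arrays. Scg2, Nptx1 and Pcp4l1 were not called with the block (adjusted p = 0.0673, 0.094 and 0.0595), and Scg2 and Nptx1 were each lost on leaving out any of day 7 array 1, the 3 day 14 arrays and day 28 arrays 1 and 2. In unoperated vein Bcan stood at 0.15, -0.07 and -0.10 and Pcp4l1 at 2.15, 2.78 and 2.49, far above day 14. Lamp5, Myt1l and Scg2 were not well above background on any day 0 array.

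A neuron list written after the values had been seen is given as description. Of its 34 tested genes 18 were dips and 0 were peaks, against 5.51% dips and 7.19% peaks over all genes. Of the 34, 4 passed the filter on dim probes through days 7 and 28 alone, so the count cannot be read as a share of neuron genes. Ppp1r1b, the dopamine-signalling protein DARPP-32 of striatal neurons, fell by 4.20 ± 0.66 (adjusted p = 0.00873), while Elavl3, a neuronal RNA-binding protein, had a contrast of -4.17 ± 0.45 (adjusted p = 0.00261) and Gad1, which makes GABA, of -3.27 ± 0.57 (adjusted p = 0.012, and 0.0573 with the scan as a block). Syn1 had a contrast of 0.34 ± 0.43, Rbfox3 of 0.03 ± 0.44 and Th, of sympathetic neurons, of -0.18 ± 0.28 (adjusted p = 0.621, 0.974 and 0.7). The array medians were -5.06, -4.65 and -4.65 at day 14, -1.21, -0.86 and -3.18 at day 7, -3.82, -3.41 and -4.11 at day 28 and -4.76, -3.69 and -4.59 at day 0. The dip was thus deeper against day 7 than against day 28, with list medians of -2.42 and -0.72. By the array medians of this list, the day 14 grafts lay near unoperated vein. With the scan as a block 6 members were dips (1.2% of all genes in that fit), without day 14 array 1 there were 5, and without day 7 array 3 there were 22.

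**Figure D5:**
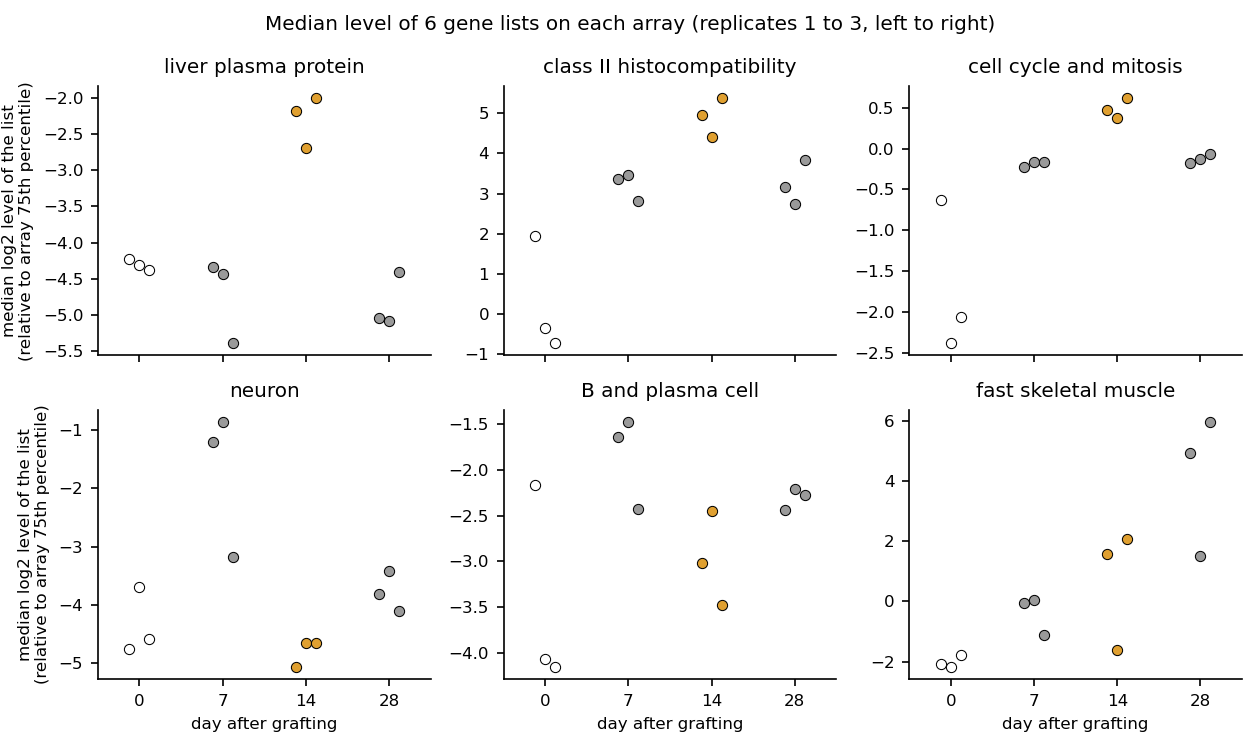
Points give the median log2 level of a gene list on each array at days 0, 7, 14 and 28, with replicates 1 to 3 from left to right and day 14 in orange. The liver, class II and cell cycle medians are highest on the day 14 arrays, the neuron median is lowest there among graft arrays, and the skeletal muscle median lies between -1.62 and 2.08 within day 14.

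Genes of B and plasma cells split. Of 10 tested, 5 were dips (among them Tnfrsf17, Cd79b, Mzb1 and Fcrla) and 1 was a peak (Pax5), against 5.51% dips and 7.19% peaks over all genes, and the median was -0.79. Cd79b, part of the B cell receptor, stood at -5.58, -4.91 and -5.17 at day 14, -2.02, -1.74 and -3.45 at day 7 and -2.75, -2.25 and -3.81 at day 28. All 3 day 14 arrays were below the rest, by 2.55 ± 0.45 as a dip (adjusted p = 0.0127). Tnfrsf17, the BCMA receptor of plasma cells, fell by 2.71 ± 0.23 (adjusted p = 0.00119) and was well above background on 2 day 14 arrays. Both Cd79b and Tnfrsf17 were also called with the scan as a block.

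Pax5, the transcription factor that holds B cells to their fate, went the other way. It stood at 0.13, 0.11 and -0.08 at day 14, -0.36, -1.07 and -0.79 at day 7 and -1.40, -1.75 and -1.28 at day 28. The 3 days were in order with no overlap, and the contrast was 1.17 ± 0.18 (adjusted p = 0.00829, also called with the block). Blk and Cd22 gave 0.06 ± 0.28 and -0.17 ± 0.18 (adjusted p = 0.908 and 0.526). Without day 14 array 1 the list held 2 dips and without day 7 array 3 it held 6.

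Of 17 genes of TGF-beta and BMP signalling, the pathways of matrix production and of bone and vessel patterning, 4 were dips and 1 was a peak, against 5.51% dips and 7.19% peaks over all genes. Contrasts were negative for 14 of the 17, with a median of -0.83. Gdf10, a BMP-like ligand, stood at -5.66, -6.23 and -5.32 at day 14, -3.15, -2.91 and -5.06 at day 7 and -0.65, -0.03 and -2.30 at day 28. Day 28 was highest of the graft days, and unoperated vein stood at -0.67, -0.23 and -0.09. The contrast was -3.39 ± 0.61 (adjusted p = 0.0137), although the difference from day 7 alone did not pass its test (-2.03, adjusted p = 0.12). Smad6 and Smad7, the inhibitory SMADs that these pathways induce, fell by 1.47 ± 0.29 (adjusted p = 0.0175) and 0.78 ± 0.18 (adjusted p = 0.0308), and the receptor gene Bmpr1b by 0.53 ± 0.12 (adjusted p = 0.0299). Tgfbr2, the receptor that binds TGF-beta, was the peak (0.57 ± 0.15, adjusted p = 0.0403). Bmp4 at -2.15 ± 0.61 and Tgfb2 at -1.49 ± 0.44 missed the threshold (adjusted p = 0.0538 and 0.0586). With the scan as a block Gdf10 was the 1 member called, against 1.2% dips over all genes, without day 14 array 1 there were 0 dips, and without day 7 array 3 there were 11.

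C1qtnf3, which encodes a secreted C1q/TNF-related protein, was well above background on all 12 arrays. It stood at 0.46, 0.82 and 0.35 at day 14, 4.76, 5.09 and 1.88 at day 7 and 4.71, 5.06 and 3.93 at day 28, and at -2.30, -5.38 and -4.74 in unoperated vein. Every day 14 array was below every other graft array and above day 0. The contrast was -3.70 ± 0.66 (adjusted p = 0.0135, and 0.0607 with the scan as a block), and the call was also lost without day 14 array 1 or array 3.

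Ccl21, the chemokine of lymphatic vessels that draws T cells and dendritic cells, stood at -0.21, 0.93 and -1.32 at day 14, 2.08, 2.40 and 1.00 at day 7, 4.89, 5.10 and 4.39 at day 28 and 4.98, 5.91 and 5.61 at day 0. Day 14 was lowest, and day 28 lay nearest to unoperated vein, with arrays 1 and 3 below every day 0 array. The contrast of -3.51 ± 0.50 (adjusted p = 0.00622) was called in all 21 alternatives, while the step from day 7 alone was -2.03 (adjusted p = 0.0696). Ntf3, a neurotrophin, was at background on every day 14 array and at -1.86, -1.16 and -3.50 at day 28. At day 7 it stood at -6.18, -5.45 and -8.05, with 1 array well above background. Unoperated vein was highest for Ntf3, at 0.24, 1.01 and 0.71. It was at least 5.82-fold lower by the contrast (adjusted p = 0.0106) and at least 26.6-fold lower than day 28, with no passing difference from day 7 (adjusted p = 0.193).

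Some stress and contractile genes gave smaller dips. Bag3, a cochaperone induced by heat and stretch, stood at 0.62, 0.60 and 0.59 at day 14, 1.44, 1.74 and 1.38 at day 7 and 1.98, 1.97 and 1.91 at day 28. The day 14 arrays were nearly equal and below the rest, by a contrast of -1.13 ± 0.11 (adjusted p = 0.00181). Hspb1, a small heat shock protein, was the other dip among 9 heat shock genes (-1.31 ± 0.30, adjusted p = 0.028, and 0.11 with the scan as a block), all of which had negative contrasts. Atf4, a regulator of the response to amino acid and folding stress, stood at 3.17, 3.37 and 3.31 at day 14, 3.98, 4.18 and 4.15 at day 7 and 4.21, 4.24 and 4.12 at day 28, and fell by 0.86 ± 0.10 (adjusted p = 0.00354). It was 1 of 3 dips among 20 genes of collagen folding and the unfolded protein response, which also held 1 peak, Calr. Contrasts of that list were split, 10 positive and 10 negative, with a median of -0.04. Lmod1, which nucleates actin in smooth muscle, was the 1 dip among 11 contractile smooth muscle genes (-1.46 ± 0.26, adjusted p = 0.0127), and all 11 contrasts were negative, with a median of -0.55. For the heat shock, folding and contractile lists, the shares over all genes were 5.51% dips and 7.19% peaks. Without day 7 array 3, 5 of the 11 contractile genes were dips, and with the scan as a block 0 were. The heat shock array medians at day 14 (3.766, 3.595 and 3.58) overlapped those of days 7 and 28. The contractile medians at day 14 (3.38, 3.74 and 3.19) lay below day 28 and overlapped day 7. Mmp13, a collagenase, fell by 2.01 ± 0.32 (adjusted p = 0.00898, and 0.0573 with the block), Dkk2, a Wnt modulator, by 1.16 ± 0.16 (adjusted p = 0.00579), and Cytl1, a secreted protein of cartilage, by 1.14 ± 0.15 (adjusted p = 0.0049).

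Matrix, lining cell and ribosomal genes are given next, beside 5.51% dips and 7.19% peaks over all genes. Lists this short cannot show a lack of calls. Of 13 fibrillar matrix genes Dcn, the proteoglycan decorin, was a dip (-0.71 ± 0.18, adjusted p = 0.0411, and 0.144 with the scan as a block), and 10 contrasts were negative, with a median of -0.15. Col3a1 had a contrast of 0.05 ± 0.19 and Eln, the gene for elastin, of -3.92 ± 1.25 (adjusted p = 0.872 and 0.0746). The array medians of that list were 4.66, 4.96 and 4.68 at day 14, 5.30, 5.0 and 4.30 at day 7 and 5.43, 5.65 and 5.35 at day 28. Day 14 lay below day 28 and overlapped day 7. None of 7 endothelial genes was a peak or a dip. Their array medians were 0.87, 0.72 and 0.94 at day 14, 0.72, 0.76 and 0.12 at day 7 and 1.63, 1.60 and 1.96 at day 28, again below day 28 and overlapping day 7. Tek, the angiopoietin receptor of endothelium, had a difference from day 28 of -1.25 (adjusted p = 0.0273) and from day 7 of 0.12 (adjusted p = 0.819). Adipoq, a fat cell hormone, was called lower (-1.40 ± 0.29, adjusted p = 0.0212, and 0.0881 with the scan as a block) with a day 14 mean between the other days. Of 19 ribosomal protein genes 1, Rpl13, was a dip (-0.38 ± 0.09, adjusted p = 0.0371, and 0.13 with the scan as a block), and the median of that list was 0.06.

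Skeletal muscle genes did not peak or dip. Tnnc2, a calcium sensor of fast fibres, stood at 3.15, -0.77 and 3.71 at day 14, -0.06, -0.09 and 0.03 at day 7 and 6.04, 2.61 and 6.97 at day 28. Arrays 1 and 3 of day 14 were high and array 2 was low, and at day 28 array 2 was again the lowest. The contrast was -0.55 ± 1.18 (adjusted p = 0.779). It was 0.17 with the scan as a block and 0.85 without day 14 array 2. None of 15 fast muscle genes was called, and Pvalb, a calcium buffer of fast fibres, came nearest (-3.62 ± 1.11, adjusted p = 0.0664). The list median was 1.58, -1.62 and 2.08 on the day 14 arrays, and leaving out array 2 turned the median contrast of the list, -0.82, to 0.28.

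The imprinted H19 transcript stood at 4.10, 3.15 and 4.49 at day 14, 1.87, 1.21 and 2.26 at day 7 and 4.51, 3.12 and 5.38 at day 28, so day 14 overlapped day 28 and it was no peak (0.85 ± 0.51, adjusted p = 0.285). Msln, a mesothelial surface protein, stood at 4.43, 4.12 and 4.61 at day 14, 4.06, 3.96 and 1.96 at day 7 and 3.97, 3.43 and 4.42 at day 28. These groups overlapped, and the contrast of 0.75 ± 0.47 was not called (adjusted p = 0.302).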

How the data were processed

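Per the file headers, Agilent Feature Extraction (version 11.0.1.1) corrected each spot for background, and the deposited scanner tables of 12 arrays give the resulting linear intensity. The values of a deposited processed table fit log2 units. Its normalization is not given in the sources used here, and the step that gave its common centre (column medians of 7.149 to 7.153) is unknown. It served as an alternative. Each array held 42136 gene spots and 1417 control spots, which were left out. On the 9 graft arrays, 73.9% to 82.6% of gene spots exceeded background by the scanner's own flag and 0 were saturated. The 75th percentile ran from 634 to 991 in intensity. The number of arrays limits the precision.

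Each array's 75th percentile was subtracted from its log2 processed intensities, and spots of a probe were averaged, without 5252 outlier spots. A probe flagged above background on 3 or more of the 9 graft arrays was fitted with limma 3.58.1 in R 4.3.3 without a block, moderated by empirical Bayes and adjusted by Benjamini-Hochberg over 20786 probes. Symbols came from RefSeq accessions (GRCr8) for 14294 of 24684 probes, while the arrays were annotated on rn4. The fit was checked on simulated data. The alternatives were all 12 arrays, the scan as a block, normexp on the median signals (the mean signal column was not used here), other scalings, the deposited values, other filters, array weights and each array left out. The headers show shared scan times and not shared slides, so the planned slide block is a scan block. Named genes were the 14 peaks and 14 dips with the largest gap to the nearer day and separate arrays, up to 3 peaks and 3 dips of each of 38 lists, transcripts without a symbol, and genes named for day 14 by earlier results. The other genes given are called members of those lists, or list members that missed the call, and were picked after their values were seen. The members, lists and tests were chosen with earlier results of these data known, and 5 lists were added after the values had been seen. A few members of the lists are counted but not reported here by name.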

Additional observations from a re-analysis of the deposited data

How the results depend on the processing

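Signal near background limits 38 peaks not well above background on any day 7 or day 28 array and 138 dips not well above it at day 14. With all 12 arrays there were 885 called probes, 398 peaks, 482 dips, 173 strict peaks and 114 strict dips (each difference called), and with the fixed scan block 694, 412, 280, 3 and 3. Normexp gave 36, 18, 18, 8 and 3, with 738 and 818 probes whose day 14 arrays lay above or below all others, a median contrast of -0.168 over all probes and 1274 of the 1605 peaks still positive. The median residual SD was then 0.498 against 0.284 (0.161 with quantile normalization added after seeing the data, which gave 1742 peaks and 1200 dips). Array weights gave 14611, 7230, 5652, 4098 and 3816. An adjusted p under 0.01 kept 362 peaks and 238 dips, and a contrast of at least 1 kept 519 and 556. Leaving out 1 array gave 468 to 6857 calls, 279 to 3450 peaks, 187 to 3282 dips, 106 to 1354 strict peaks, 59 to 1551 strict dips, 2295 to 3459 probes above and 1513 to 3251 below all others. The cause was not tested. The scan as a random block, quantile and median scaling, the deposited values, both filters on dim probes and keeping outlier spots each left all of these counts within 1.5 times. Signs turned for Tnnc2 (0.17 and 0.079 with the scan block and array weights, -1.39 to 0.85 on leaving out 1 array), Myl1 (0.41 and 0.45, and -1.27 to 1.27), and with normexp for Tpx2 (-0.16) and Pfkfb3 (-0.14). Of 95 named peaks and dips 93 kept their sign in each alternative that tested them (20 or 21), 44 were called with the scan block, 37 on leaving out any array, and 5 in every alternative (Alb, Vangl1, Ccl21, RT1-Db1 and Elovl6). No paired analysis was possible because every label bears the same replicate number, so the numbers used here are names alone.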

Other observations

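A transcript without a symbol gave the deepest dip of all. The probe for U65217 stood at -5.03, -3.24 and -5.17 at day 14, against 4.22, 4.41 and 3.63 at day 7, 3.35, 3.57 and 3.04 at day 28, and 0.53, -0.66 and -3.77 at day 0. All 3 day 14 arrays lay far below the rest, and the contrast was -8.19 ± 0.42 (adjusted p = 0.000427, called in all 21 alternatives). RT1-Bb, at 5.69, 5.23 and 5.97 at day 14, ran the other way. The day 14 arrays had RT1-Bb high and the U65217 probe low, and the day 7 arrays the reverse. Day 28 array 2 was like the day 7 arrays, with RT1-Bb at -8.72 and the U65217 probe at 3.57, while day 28 arrays 1 and 3 had both above background. The labels name no strain or animal, so a difference between animals and one between days cannot be told apart for these probes. A second probe without a symbol, for S64522, was at least 29.3-fold lower at day 14 (adjusted p = 0.0017). Among the peaks without a symbol, BC158594 was at least 7.68-fold higher (adjusted p = 0.000427).

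Of 7 red cell genes 2 were dips, against 5.51% of all genes, and 0 were dips with the scan as a block. Alas2, which starts heme synthesis in red cell precursors, stood at 2.50, 3.31 and 1.92 at day 14, 4.41, 4.32 and 4.99 at day 7 and 3.58, 3.67 and 3.40 at day 28. It was lower by 2.00 than day 7 (adjusted p = 0.0136) and by 0.98 than day 28 (adjusted p = 0.082), a dip of -1.49 ± 0.29 (adjusted p = 0.0178, and 0.076 with the scan as a block). Klf1, the erythroid transcription factor, was the other dip (-0.99 ± 0.23, adjusted p = 0.0307, and 0.105 with the block), and all 7 contrasts were negative. Without day 14 array 1 or array 3, or day 28 array 1, 0 of the 7 were dips.

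Relative to unoperated vein, 1414 of the 1605 peaks had a day 14 mean above the day 0 mean, and 952 of the 1165 dips one below it. These probes had been picked for a high or a low day 14 mean, which favours that direction. The share over all tested probes was not counted, so no result about peaks or dips is read from these counts. Among probes for predicted non-coding transcripts 8.13% were peaks and 3.22% were dips, against 7.12% and 5.64% of probes for named genes.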
